A study of Homo sapiens with 46 samples.

Results

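The transcripts of 8 genes that silence retroelements were followed through 46 RNA-seq libraries of human cells made to lose the DNA-end-binding protein Ku. They were chosen by symbol, and all 8 were found among the 61228 genes of the HCT116 table and the 30160 genes of the HEK293 table, and all 8 passed the count filter of every fit. TASOR, MPHOSPH8 and PPHLN1 (periphilin) are the subunits of the human silencing hub (HUSH). MORC2 is the ATPase that works with HUSH, SETDB1 the histone H3 lysine 9 methyltransferase that both HUSH and TRIM28 recruit, and ATF7IP the nuclear cofactor that stabilises SETDB1. TRIM28 (KAP1) is the corepressor bound by KRAB zinc-finger proteins, and SUV39H1 is the methyltransferase of pericentromeric heterochromatin.

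As background, HUSH recognises long transcribed insertions with few introns, such as young L1 elements, and brings MORC2 and SETDB1 to them, so that the locus gains trimethylated lysine 9 of histone H3 and is compacted. KRAB zinc fingers read the sequence of endogenous retroviruses and older elements and call TRIM28, which in turn brings SETDB1 and HP1 proteins. SUV39H1 spreads and maintains the same mark at repeats, and loss of SETDB1 is known to free double-stranded RNA that RIG-I-like receptors sense through the adaptor MAVS.

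The first system was HCT116, a human colon carcinoma line whose Ku80 carries an auxin-inducible degron, in clones 1, 7 and 9. Degradation was induced with the auxin IAA at 100 µM together with doxycycline at 0.5 µg/mL, and the controls received DMSO, so each IAA comparison holds both compounds as well as the loss of Ku80. IAA groups at 2, 4 and 6 days and DMSO at 2 days had 3 libraries each, and IAA and DMSO at 1 day had 2 each (clones 1 and 9). A CDK4/6 inhibitor, which the labels do not name, was given alone or with IAA for 2 days (2 libraries each, clones 1 and 9) and for 4 days (3 each). Degron clones 1, 13 and 15 that also lacked MAVS received DMSO or IAA for 4 days (3 each). For IAA at 4 and 6 days, and for the inhibitor alone at 4 days, the control used was DMSO at 2 days, so treatment and time in culture cannot be told apart there. The second system was HCT116 with 1 floxed and 1 deleted allele of the Ku86 gene (Ku86flox/-), with or without the CreERT2 recombinase, 4 days after 50 nM 4-hydroxytamoxifen (4OHT) or ethanol, with 2 libraries per group. The third was HEK293, a human embryonic kidney line, without endogenous Ku70 and kept alive by a doxycycline-inducible Ku70, in clones Sa11, SB and TI, with 1 µg/mL doxycycline or 8 days after its withdrawal.

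Library totals were 9.53 to 45.75 M (mega) estimated counts in the degron set, 13.05 to 17.61 M in the floxed set and 19.57 to 28.48 M in HEK293. XRCC5, which encodes Ku80 (Ku86), was at 257 ± 1.49 CPM (SD, n = 2) in ethanol and 27.8 ± 4.12 CPM (SD, n = 2) after 4OHT with Cre. XRCC6, which encodes Ku70, was at 3010 ± 657 CPM (SD, n = 3) with doxycycline and 454 ± 137 CPM (SD, n = 3) without it in HEK293. MAVS was at 324 ± 14.5 CPM (SD, n = 3) in DMSO-treated degron clones and 139 ± 27.4 CPM (SD, n = 3) in those without MAVS. The degron acts on the protein, so the RNA of XRCC5 does not check it. Of 10 colon epithelial markers 7 averaged at least 1 CPM in both HCT116 sets, including EPCAM, KRT8 and CDH1, and 6 did in HEK293, with sums of 1510 to 3420 CPM (degron), 2420 to 4430 CPM (floxed) and 218 to 401 CPM (HEK293). Of 10 markers listed for HEK293, 7 did so in that line, 6 in the degron set and 5 in the floxed set, with sums of 278 to 332, 121 to 292 and 146 to 301 CPM, so this list does not tell the lines apart by its sum. Of 10 markers of blood and stroma 1 did in the HCT116 sets, COL1A1 (list sums 14.8 to 52.6 and 53.4 to 76.0 CPM), and 5 did in HEK293, PTPRC, HBB, COL1A1, PECAM1 and DCN (42.8 to 98.6 CPM).

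A set of 8 degron libraries stood apart in these markers, those of DMSO and IAA at 1 day and of the inhibitor alone and with IAA at 2 days. NEFL, a neurofilament gene of the HEK293 list, had 3.34 to 5.57 CPM in these 8 and 0 to 0.117 CPM in the other 24, where 23 libraries were at 0. CDH2, the neural cadherin, had 2.49 to 4.14 CPM against 0 to 0.121 CPM, DACH1 0.427 to 1.16 against 0 to 0.182 CPM and SOX2 0.485 to 1.06 against 0 to 0.255 CPM. The colon stem cell gene LGR5 had 0.665 to 1.34 CPM against 0 to 0.182 CPM. These 8 enter the comparison of 1-day with 2-day DMSO, the ranges over all libraries, and the order of and correlations over the degron groups. Those results are also given without the 8 or with these values beside them. Exceptions are the TPM values and some correlations, given over all libraries only. All degron tests also share 1 count filter and 1 pooled spread with these 8.

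All 8 transcripts were present in every library, and the lowest estimated count of any of them was 91, for SUV39H1. On the length-scaled TPM measure, TRIM28 was the most abundant in the degron set, with a median of 792 TPM over 32 libraries and a range of 304 to 1420 TPM. PPHLN1 followed with a median of 72.6 TPM, SETDB1, TASOR, MPHOSPH8 and ATF7IP had medians of 32.2, 31.7, 26.5 and 20.4 TPM, and MORC2 had 18.3 TPM. SUV39H1 was the scarcest, with a median of 8.64 TPM and a range of 3.81 to 15.5 TPM. It was also the member with the widest range in CPM (counts scaled to library size with the TMM factors of edgeR), 6.02 to 37.8 CPM, a 6.28-fold span. Without the 8 libraries that stood apart its range was 6.02 to 23.9 CPM, a 3.97-fold span. The others spanned 1.79-fold (PPHLN1) to 3.37-fold (ATF7IP) over all 32 libraries, and 1.68-fold (MPHOSPH8) to 3.37-fold (ATF7IP) without those 8.

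The genes lie on separate chromosomes except for ATF7IP and PPHLN1, which share chromosome 12 (RefSeq positions, GRCh38.p14). SUV39H1 is at chrX:48695554-48709016, MORC2 at chr22:30925130-30968774, TRIM28 at chr19:58544064-58550715 and SETDB1 at chr1:150926263-150964737. The RefSeq promoter table held 7 of the 8 genes. The bases before the start of SUV39H1 and MORC2 are shown because these genes moved in opposite directions in the floxed cells. SUV39H1 has 2 annotated starts, and the letters before the second stop at the first base of an annotated untranslated exon. Sequences run 5′ to 3′ on the gene's strand, and capitals mark CG dinucleotides.
SUV39H1, first start, chrX:48695304-48695553, plus strand: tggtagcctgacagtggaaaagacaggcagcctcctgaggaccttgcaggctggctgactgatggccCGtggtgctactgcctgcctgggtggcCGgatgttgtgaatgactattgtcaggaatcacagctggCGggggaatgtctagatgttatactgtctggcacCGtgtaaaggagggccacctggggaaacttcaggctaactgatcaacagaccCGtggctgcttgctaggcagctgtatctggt
SUV39H1, second start, chrX:48696484-48696594, plus strand: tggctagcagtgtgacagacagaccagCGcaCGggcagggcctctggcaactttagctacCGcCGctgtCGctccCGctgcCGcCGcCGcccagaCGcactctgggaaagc
MORC2, chr22:30968775-30969024, minus strand: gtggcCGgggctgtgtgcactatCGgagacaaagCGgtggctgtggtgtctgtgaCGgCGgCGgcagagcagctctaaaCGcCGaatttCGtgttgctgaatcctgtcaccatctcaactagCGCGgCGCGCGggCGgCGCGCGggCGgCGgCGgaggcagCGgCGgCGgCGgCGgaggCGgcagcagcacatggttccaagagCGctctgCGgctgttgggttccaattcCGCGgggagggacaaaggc

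The MORC2 window held 31 CG dinucleotides, equal to the 90th percentile of 35116 RefSeq windows of the same 250 bases, whose median was 11. The window before the first SUV39H1 start held 5, and the 111 bases shown before the second held 10. The full 250-base window before the second start, which runs through the untranslated exon and is not shown whole, held 35. The E2F-type words TTTCCCGC and TTTGGCGC, searched on both strands, occurred in none of the 17 windows of the 7 genes, and they occurred in 1.39% and 0.55% of all windows. CCAAT occurred in the MORC2 window and in the full window before the second SUV39H1 start, and in 32% of all windows. These matches describe letters and say nothing of binding.

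SUV39H1 and TRIM28 fell within 2 days of IAA and stayed low, and the other silencers followed later or not at all. A gene is called here where the adjusted p of edgeR's quasi-likelihood test was under 0.05. After 1 day 0 of the 8 members were called, where 0.185% of 18877 genes tested were, and 1 member, TRIM28, had an unadjusted p under 0.05 in edgeR and was called by DESeq2, with 0 called by limma. SUV39H1 had 34.5 and 37.8 CPM in DMSO and 34.2 and 33.4 CPM with IAA at that time. TRIM28 had 761 and 819 CPM in DMSO and 587 and 585 CPM with IAA, ranges that did not overlap. The TRIM28 log2 fold change was -0.43 ± 0.11 (SE, n = 2 and 2; adjusted p = 0.132, edgeR), and DESeq2 gave an adjusted p of 0.0066. The adjusted p-values of TRIM28 over its 13 alternatives at 1 day ran from 0.0066 to 1.0.

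At 2 days 2 members were lower and 0 higher, beside 9.94% of genes lower and 19.1% called in all. SUV39H1 had 22.2, 23.1 and 23.9 CPM in DMSO clones 1, 7 and 9, and 7.61, 11.8 and 10.2 CPM with IAA. Every IAA library lay below every control, and the log2 fold change was -1.23 ± 0.18 (SE, n = 3 and 3; edgeR adjusted p = 2.68e-05). TRIM28 had 578, 643 and 738 CPM in DMSO and 384, 415 and 461 CPM with IAA. Its ranges did not overlap either, with a log2 fold change of -0.64 ± 0.09 (edgeR adjusted p = 2.21e-05). The other 6 members had log2 fold changes between -0.29 (ATF7IP) and 0.13 (MPHOSPH8), and their adjusted p-values were 0.13 to 0.765.

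At 4 days 4 members were lower and 0 higher, where 14.9% of all genes tested were lower and 32.8% called. SUV39H1 had 11, 6.02 and 7.18 CPM with IAA in clones 1, 7 and 9, against the 22.2 to 23.9 CPM of DMSO at 2 days. This was a log2 fold change of -1.50 ± 0.18 (SE, n = 3 and 3; edgeR adjusted p = 4.69e-07), with clone ratios of -1.0, -1.92 and -1.72 on the log2 scale. Clone 1 was the least changed of the 3. TRIM28 had 398, 368 and 373 CPM with IAA, a log2 fold change of -0.78 ± 0.09 (edgeR adjusted p = 3.08e-07), all below its lowest control.

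SETDB1 and PPHLN1 were the other pair called at 4 days, with smaller differences. SETDB1 had 71.1, 67.9 and 63.6 CPM in DMSO and 53.4, 45.2 and 65.2 CPM with IAA, so clone 9 with IAA overlapped the controls. Its log2 fold change was -0.31 ± 0.11 (edgeR adjusted p = 0.0335). The call ended without DMSO clone 1, DMSO clone 7, IAA clone 1 or IAA clone 7, and the value without IAA clone 7 was -0.19. PPHLN1 had 76.3, 76.0 and 81.1 CPM in DMSO and 53.9, 73.8 and 58.0 CPM with IAA, ranges that did not overlap, with a log2 fold change of -0.33 ± 0.11 (edgeR adjusted p = 0.0243). Its call ended without DMSO clone 9, IAA clone 1 or IAA clone 9, and the value without IAA clone 1 was -0.22. Without IAA clone 1, MPHOSPH8 was higher at 0.37 and was called, so that TRIM28, SUV39H1 and MPHOSPH8 were then the 3 members called. A fit of the compared groups alone called neither SETDB1 nor PPHLN1, nor did limma on log2(TPM + 1).

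At 6 days 6 members were called, 5 lower and 1 higher, where 17.5% of genes tested were lower, 17.8% higher and 35.2% called. SETDB1 had 45.2, 45.6 and 38.6 CPM with IAA, all below its controls, a log2 fold change of -0.65 ± 0.11 (SE, n = 3 and 3; edgeR adjusted p = 4.69e-05). SUV39H1 had 12.4, 11 and 10.5 CPM (log2 fold change -1.03 ± 0.18, edgeR adjusted p = 5.47e-05). TRIM28 had 424, 448 and 424 CPM (log2 fold change -0.60 ± 0.09, edgeR adjusted p = 1.57e-05). In these 3 genes, as in ATF7IP and TASOR below, every IAA library lay under every control. The share of all genes tested whose ranges lay apart was not computed.

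MORC2 was the member that rose at 6 days. It had 40.4, 43.0 and 51.4 CPM in DMSO, 38.1, 36.0 and 41.2 CPM at 4 days and 62.1, 55.9 and 58.5 CPM at 6 days of IAA. The 6-day libraries were above all others of the time course from 2 days on, and the log2 fold change to DMSO was 0.39 ± 0.11 (edgeR adjusted p = 0.00574). Leaving out all libraries of clone 1 gave 0.30 and ended that call. ATF7IP had 121, 106 and 103 CPM in DMSO and 90.2, 71.2 and 82.1 CPM at 6 days, a log2 fold change of -0.44 ± 0.14 (edgeR adjusted p = 0.0163). The ATF7IP call ended without DMSO clone 1 or IAA clone 7. TASOR had 97.6, 100 and 103 CPM in DMSO and 80.5, 75.4 and 76.8 CPM at 6 days, a log2 fold change of -0.37 ± 0.15 (edgeR adjusted p = 0.0496). Its call ended without any 1 of the 6 libraries, and MPHOSPH8 was at 0.05 ± 0.12 (edgeR adjusted p = 0.821).

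Within the IAA time course 0 members were called between 2 and 4 days, where 8.17% of genes were, and 0 had an unadjusted p under 0.05 in edgeR or were called by DESeq2 or limma. SUV39H1 differed there by -0.27 ± 0.19 (edgeR adjusted p = 0.409), and without IAA clone 1 at 4 days the value was -0.57 and called. Between 4 and 6 days 2 members were called, 1 in each direction, where 12.5% of genes were (5.36% higher and 7.11% lower). MORC2 rose by a log2 fold change of 0.62 ± 0.11 (SE, n = 3 and 3; edgeR adjusted p = 0.000848), with clone ratios of 0.71, 0.64 and 0.51. SETDB1 differed by -0.34 ± 0.11 (edgeR adjusted p = 0.0437). With clone as a block the SETDB1 adjusted p was 0.0538, and without IAA clone 9 at 4 days the value was -0.19 and not called, nor was it (-0.27) without IAA clone 9 at 6 days or (-0.33) without IAA clone 1 at 4 days.

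**Figure D1:**
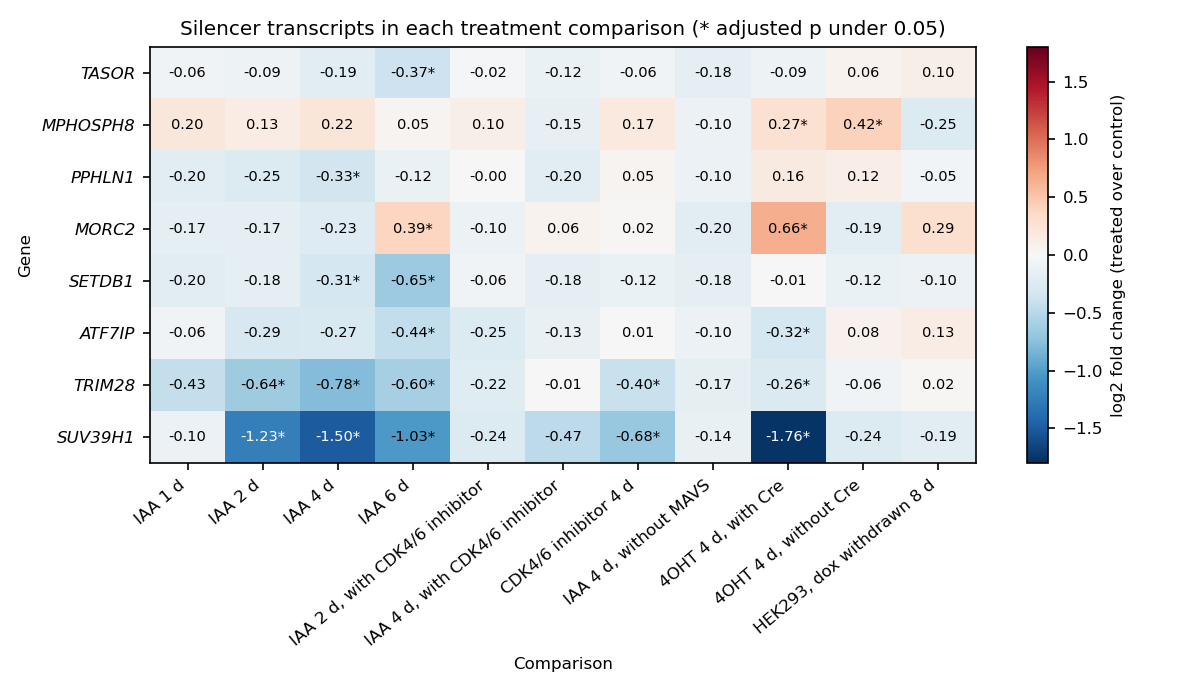
Log2 fold changes of the 8 silencer transcripts (rows) in 11 treatment comparisons (columns), coloured from blue (lower) to red (higher), with an asterisk where the edgeR adjusted p was under 0.05. SUV39H1 and TRIM28 are blue and marked at 2, 4 and 6 days of IAA, and MORC2 is red and marked at 6 days of IAA (0.39) and after 4OHT with Cre (0.66).

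The fall of SUV39H1 and TRIM28 differed in size with MAVS status. In degron clones without MAVS 0 of the 8 members were called at 4 days of IAA against their own 4-day DMSO controls, where 7.88% of genes were. In edgeR 0 had an unadjusted p under 0.05, and DESeq2 and limma called 0. SUV39H1 had 19.7, 21.4 and 20.3 CPM in DMSO clones 1, 13 and 15 and 18.3, 20.3 and 17.4 CPM with IAA. Those ranges overlapped, and the log2 fold change was -0.14 ± 0.18 (SE, n = 3 and 3; edgeR adjusted p = 0.786). TRIM28 had 650, 680 and 703 CPM in DMSO and 578, 662 and 563 CPM with IAA, a log2 fold change of -0.17 ± 0.09 (edgeR adjusted p = 0.317). The ranges of TRIM28 overlapped through clone 13.

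The difference between the 4-day responses with and without MAVS was tested as an interaction, and 2 members were called, both more negative with MAVS, where 4.85% of genes were called and 2.46% were more negative. It was -1.36 ± 0.25 for SUV39H1 (edgeR adjusted p = 0.0016) and -0.61 ± 0.13 for TRIM28 (edgeR adjusted p = 0.00602) on the log2 scale. In a fit of the compared groups alone TRIM28 was at -0.62 and was not called (edgeR adjusted p = 0.083), while SUV39H1 was. The other 6 members had differences of -0.23 (PPHLN1) to 0.32 (MPHOSPH8), with adjusted p of 0.33 or more. The response with MAVS was measured against 2-day DMSO and that without MAVS against 4-day DMSO. The clones also differ, so MAVS status, clone and age of the control cannot be told apart.

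DMSO-treated clones with and without MAVS differed themselves in 4 members, 1 higher and 3 lower, where 46.1% of genes were called, 24.5% higher and 21.6% lower. ATF7IP had 56.8, 57.4 and 50.3 CPM without MAVS, under the 103 to 121 CPM with it, a log2 fold change of -1.01 ± 0.14 (edgeR adjusted p = 3.61e-06). TASOR and PPHLN1 were lower by -0.49 ± 0.15 and -0.48 ± 0.11 (edgeR adjusted p = 0.00816 and 0.00104). MORC2 was higher by 0.41 ± 0.11 (edgeR adjusted p = 0.00329). Markers moved as well: of 8 colon markers tested 3 were higher and 1 lower without MAVS (list sums 2250 to 2970 against 1640 to 1660 CPM), of 9 HEK293 markers 2 were higher (188 to 196 against 143 to 147 CPM) and of 2 markers of blood and stroma both were (39.9 to 52.6 against 23.6 to 30.3 CPM). Their part in the member differences was not tested.

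The DMSO controls of 1 day (clones 1 and 9) and 2 days (clones 1, 7 and 9) also differed, in 5 members, 3 higher and 2 lower, and in 37.2% of genes, 22.1% higher and 15.1% lower. ATF7IP had 56.1 and 58.0 CPM at 1 day (log2 fold change to 2 days -0.95 ± 0.16, edgeR adjusted p = 6.16e-05), and TASOR was at -0.49 ± 0.17 (edgeR adjusted p = 0.0237). MORC2 was higher at 1 day by 0.65 ± 0.12, SUV39H1 by 0.65 ± 0.19 and TRIM28 by 0.27 ± 0.10 (edgeR adjusted p = 0.000123, 0.0099 and 0.0384). The calls of TRIM28 and SUV39H1 ended without DMSO clone 1 or clone 9 at 1 day, TRIM28's also without DMSO clone 1 or clone 7 at 2 days, and that of TASOR ended without DMSO clone 9 at 1 day. The identity markers differed between these controls too. Of 9 HEK293 markers tested 5 were higher at 1 day and 1 lower, with list sums of 187 to 200 CPM at 1 day and 143 to 147 CPM at 2 days, where NEFL, NEFM, DACH1 and CDH2 were at 0 in every library. Of 8 colon markers 4 were higher and 1, CDH1, lower (2380 to 2520 against 1640 to 1660 CPM), with LGR5 at 0 in every 2-day library and VIL1 at 4.65 to 7.47 CPM against 0 to 0.0956 CPM. NEFL, CDH2, DACH1, SOX2 and LGR5 had at most 0.255 CPM outside the 8 libraries that stood apart. They passed the count filter only through those libraries, so their calls here were largely fixed by the filter. Of 2 markers of blood and stroma 0 were higher and 1, COL1A1, lower (15.9 to 17.9 against 23.6 to 30.3 CPM). The part of whatever moved these markers in the member differences was not tested. The spread between control groups was as large as several of the IAA differences of MORC2, TASOR and ATF7IP. Whether the library sets of different days were handled apart is not given in the sources used here, and its part in these differences was not tested.

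**Figure D2:**
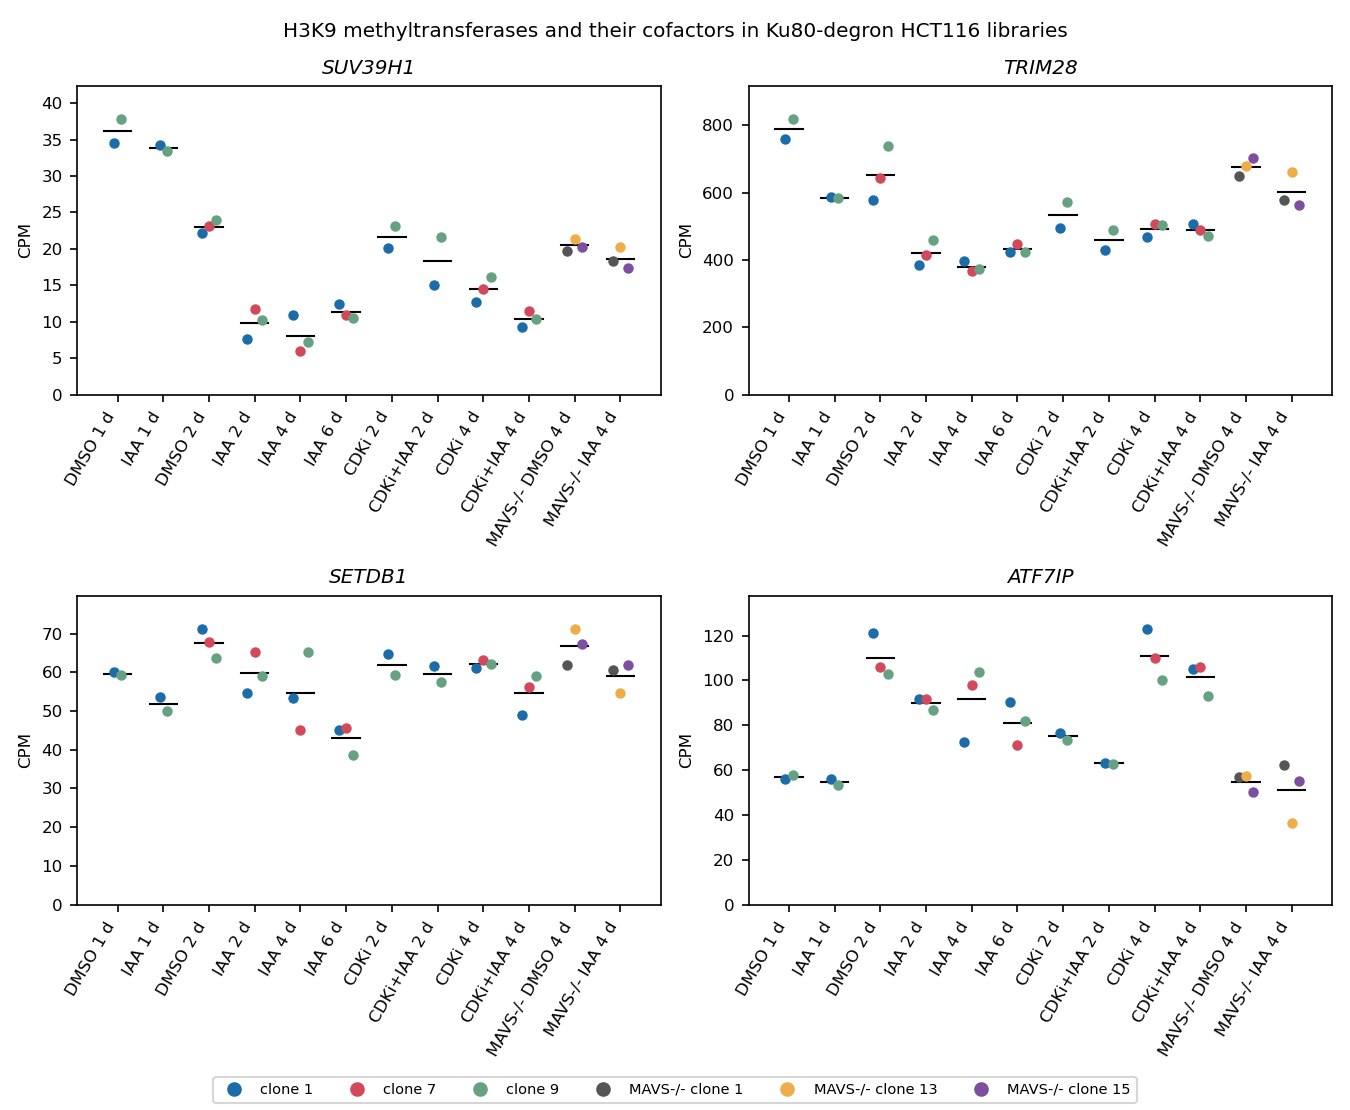
CPM (vertical axes, from 0) of SUV39H1, TRIM28, SETDB1 and ATF7IP in each degron library, by treatment group and coloured by clone, with bars at the group means. SUV39H1 lies at 6.02 to 12.4 CPM in all IAA libraries of 2 to 6 days without inhibitor in clones with MAVS, and at 17.4 to 21.4 CPM in all libraries without MAVS, and ATF7IP differs between control groups.

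With the CDK4/6 inhibitor present, IAA moved none of the silencers past the threshold. At 2 days 0 of 8 members were called, where 0.413% of genes were, and 0 had an unadjusted p under 0.05 in edgeR or were called by DESeq2 or limma, with SUV39H1 at 20.1 and 23.2 CPM with the inhibitor alone and 15 and 21.6 CPM with IAA added. At 4 days 0 of 8 were called, where 11.2% of genes were. In edgeR 1, SUV39H1, had an unadjusted p under 0.05, and DESeq2 and limma called 0. SUV39H1 had 12.7, 14.5 and 16.1 CPM with the inhibitor and 9.34, 11.5 and 10.4 CPM with IAA added. Each clone was lower and the ranges did not overlap, with a log2 fold change of -0.47 ± 0.18 (SE, n = 3 and 3; edgeR adjusted p = 0.105). TRIM28 had 468, 508 and 503 CPM with the inhibitor and 506, 489 and 471 CPM with IAA added, a log2 fold change of -0.01 ± 0.09 (edgeR adjusted p = 0.989).

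These same 2 members were lower with the inhibitor alone at 4 days than in DMSO at 2 days, where 3.84% of genes were lower and 7.69% called. Treatment and time in culture cannot be told apart in this comparison. SUV39H1 differed by -0.68 ± 0.18 (edgeR adjusted p = 0.0183) and TRIM28 by -0.40 ± 0.09 (edgeR adjusted p = 0.00718), and every inhibitor library was below every control for both. The SUV39H1 call ended without inhibitor clone 1 or 7 or DMSO clone 7 or 9, and the TRIM28 call without DMSO clone 9, which gave -0.29. Neither gene was called when all libraries of clone 1, of clone 7 or of clone 9 were left out. The 4-day IAA responses without and with the inhibitor differed in 2 members, where 4.69% of genes were called and 2.19% were more negative. The difference was -0.77 ± 0.13 for TRIM28 (edgeR adjusted p = 0.00112) and -1.03 ± 0.26 for SUV39H1 (edgeR adjusted p = 0.0201). The SUV39H1 call ended without DMSO clone 9, IAA clone 7, inhibitor clone 1 or inhibitor plus IAA clone 7, with values of -1.01, -0.86, -0.95 and -0.95. Without all libraries of clone 9 TRIM28 was at -0.65 and not called. Here too the response without inhibitor used the 2-day control.

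**Figure D3:**
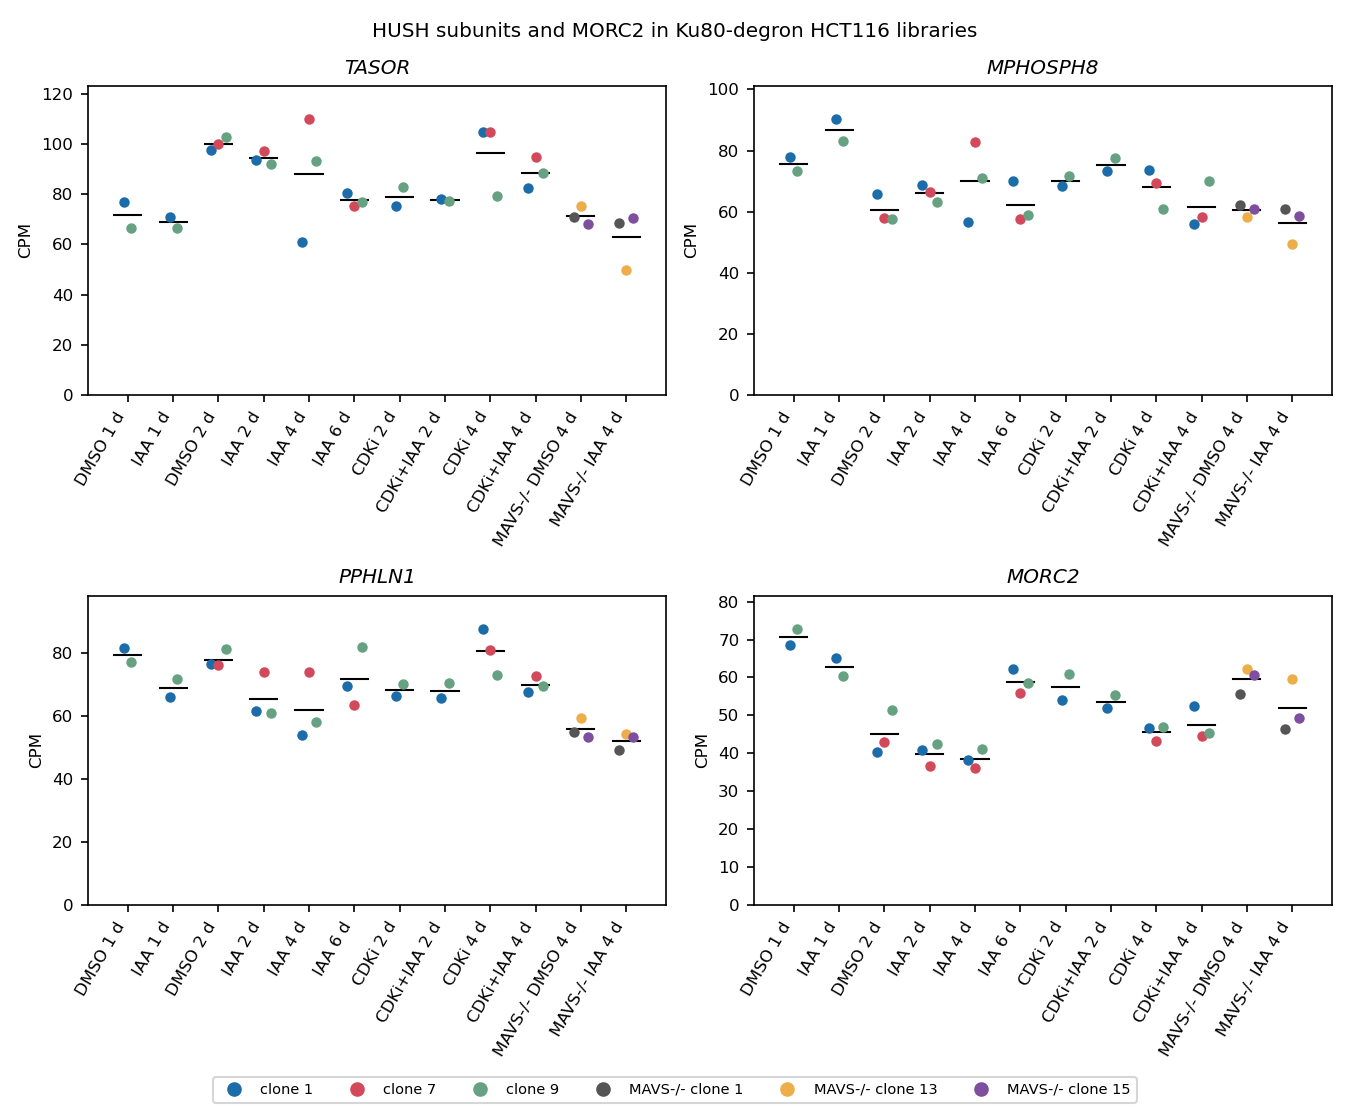
CPM (vertical axes, from 0) of the HUSH subunits TASOR, MPHOSPH8 and PPHLN1 and of MORC2 in each degron library, by treatment group and coloured by clone, with bars at the group means. MORC2 rises from 38.4 CPM (mean) at 4 days to 58.9 CPM at 6 days of IAA, and its highest mean, 70.7 CPM, is that of DMSO at 1 day.

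In the order of the 12 degron group means, SUV39H1 was highest in DMSO at 1 day (36.2 CPM) and lowest in IAA at 4 days (8.08 CPM). The library ranges of neighbouring groups overlapped in 8 of 11 steps of that order. The gaps lay below DMSO at 1 day, below IAA at 1 day and below the inhibitor alone at 4 days. TRIM28 had the same top and bottom groups, at 790 and 379 CPM, and 9 of 11 steps overlapped. MORC2 also ran from DMSO at 1 day to IAA at 4 days (70.7 and 38.4 CPM, 10 of 11 steps overlapping), and SETDB1 from DMSO at 2 days to IAA at 6 days (67.6 and 43.1 CPM, 10 of 11). MPHOSPH8, TASOR, PPHLN1 and ATF7IP each had their lowest mean in IAA-treated clones without MAVS, at 56.2, 62.9, 52.1 and 51.2 CPM. For TASOR and PPHLN1 every one of the 11 steps overlapped, and for MPHOSPH8 and ATF7IP 9 of 11 did. Over the 8 groups left without the 1-day and 2-day inhibitor groups, SUV39H1 was highest in DMSO at 2 days (23.0 CPM), and TRIM28 and MORC2 were highest in DMSO-treated clones without MAVS (678 and 59.5 CPM). The lowest groups were those named above.

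Across those 12 group means of log2 CPM, the genes most like SUV39H1 were MSH6, a mismatch repair protein, with a Pearson r of 0.982, and MCM7, a subunit of the replicative helicase, and the cell-cycle transcription factor MYBL2, both at 0.978. The genes most like TRIM28 were TONSL (0.96), SF3B2 (0.955) and DUS3L (0.953). Those most like MORC2 were SLCO3A1 (0.946), WDR74 (0.945) and SLC3A2 (0.944), and those most like SETDB1 were WNT16 and NUDT6 (0.972 each) and PAPLN (0.948). PPHLN1 was most like TXLNG (0.968), UTP15 (0.963) and MRPL50 (0.961), and MPHOSPH8 was most like 3 pseudogenes, NDUFAF2P1, UBE2V1P2 and RAC1P2 (0.907, 0.902 and 0.90). Among the silencers themselves the closest pair was TASOR and ATF7IP (0.95), followed by TRIM28 and SUV39H1 (0.863). TASOR was most like the noncoding RNA OIP5-AS1 (0.969) and 2 genes that the table gives by identifier alone (0.976 and 0.962). ATF7IP was most like POTEF (0.989), ZBTB44 (0.975) and 1 gene given by identifier alone (0.977). Over the 8 groups without the set that stood apart, MSH6, MCM7 and MYBL2 were at 0.965, 0.964 and 0.959 with SUV39H1, TRIM28 and SUV39H1 at 0.961, and the pseudogenes NDUFAF2P1 and RAC1P2 at 0.812 and 0.752 with MPHOSPH8. These r values are descriptions over groups that share libraries, depth and control sets.

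In the floxed cells, 4OHT with Cre gave the lowest SUV39H1 and the highest MORC2 of the 4 groups. Of the 8 members 5 were called, 2 higher and 3 lower, where 54.0% of 16726 genes tested were called, 26.4% higher and 27.5% lower. The labels do not say that the replicates were separate cultures, so the p-values here rest on the spread of libraries that may be technical repeats. SUV39H1 had 25.0 and 26.3 CPM in ethanol and 7.45 and 7.72 CPM after 4OHT, a log2 fold change of -1.76 ± 0.10 (SE, n = 2 and 2; edgeR adjusted p = 7.19e-09). MORC2 had 43.4 and 43.8 CPM in ethanol and 69.1 and 68.3 CPM after 4OHT, a log2 fold change of 0.66 ± 0.07 (edgeR adjusted p = 2.75e-06). Both genes were separated from their controls by far more than the gap between replicates.

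TRIM28 had 659 and 624 CPM in ethanol and 522 and 546 CPM after 4OHT with Cre, a log2 fold change of -0.26 ± 0.05 (edgeR adjusted p = 0.00105). ATF7IP had 56.4 and 60.9 CPM and then 44.4 and 50.0 CPM, a log2 fold change of -0.32 ± 0.08 (edgeR adjusted p = 0.00471), and its call ended without 4OHT replicate 1. MPHOSPH8 rose from 51.3 and 53.8 CPM to 64.0 and 62.9 CPM, a log2 fold change of 0.27 ± 0.06 (edgeR adjusted p = 0.00245). SETDB1, which was lower at 6 days of IAA, had 68.7 and 68.2 CPM in ethanol and 68.1 and 68.0 CPM after 4OHT with Cre (log2 fold change -0.01 ± 0.06, edgeR adjusted p = 0.931). TASOR (-0.09 ± 0.09) and PPHLN1 (0.16 ± 0.07) were not called (edgeR adjusted p = 0.471 and 0.0519).

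Without Cre, 4OHT moved 1 member, MPHOSPH8, where 13.7% of genes were called and 7.26% were higher. It had 39.0 and 37.5 CPM in ethanol and 51.5 and 51.3 CPM after 4OHT, a log2 fold change of 0.42 ± 0.07 (SE, n = 2 and 2; edgeR adjusted p = 0.00127). SUV39H1 had 24.4 and 26.7 CPM and then 22.3 and 20.9 CPM (log2 fold change -0.24 ± 0.08, edgeR adjusted p = 0.0734), and without ethanol replicate 1 it was at -0.31 and called. MORC2 had 39.2 and 40.2 CPM and then 32.9 and 36.9 CPM (log2 fold change -0.19 ± 0.07, edgeR adjusted p = 0.109).

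The responses with and without Cre differed in 3 members, where 41.2% of genes were called, 18.8% more positive and 22.4% more negative. The difference was -1.52 ± 0.13 for SUV39H1 (edgeR adjusted p = 9.06e-07), 0.84 ± 0.10 for MORC2 (edgeR adjusted p = 1.87e-05) and -0.39 ± 0.11 for ATF7IP (edgeR adjusted p = 0.0118). The ATF7IP call ended without 4OHT replicate 1 with Cre, ethanol replicate 2 with Cre or 4OHT replicate 1 without Cre. For MPHOSPH8, which rose in both, the difference was -0.15 ± 0.09 (edgeR adjusted p = 0.2), and for TRIM28 it was -0.20 ± 0.08 (edgeR adjusted p = 0.0508). In ethanol, cells with Cre already differed from those without in 3 members, where 24.1% of genes were called, 12.4% higher and 11.7% lower. MPHOSPH8 was higher by 0.46 ± 0.07, PPHLN1 by 0.20 ± 0.07 and ATF7IP was lower by -0.27 ± 0.08 (edgeR adjusted p = 0.000264, 0.0489 and 0.0226). The PPHLN1 call ended without 3 of the 4 libraries (ethanol replicate 1 or 2 with Cre, or replicate 2 without), and the ATF7IP call without replicate 1 of either group. Beside the Cre difference, 4 of 7 colon markers tested were more positive and 1 more negative, and 1 of 5 HEK293 markers was more positive and 3 more negative. Colon sums were 4420 to 4430 CPM after 4OHT with Cre and 2420 to 3250 CPM in the other groups, and HEK293 sums 287 to 301 and 146 to 202 CPM, with NEFL and NEFM at 0 in all libraries. Their part in the member differences was not tested.

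**Figure D4:**
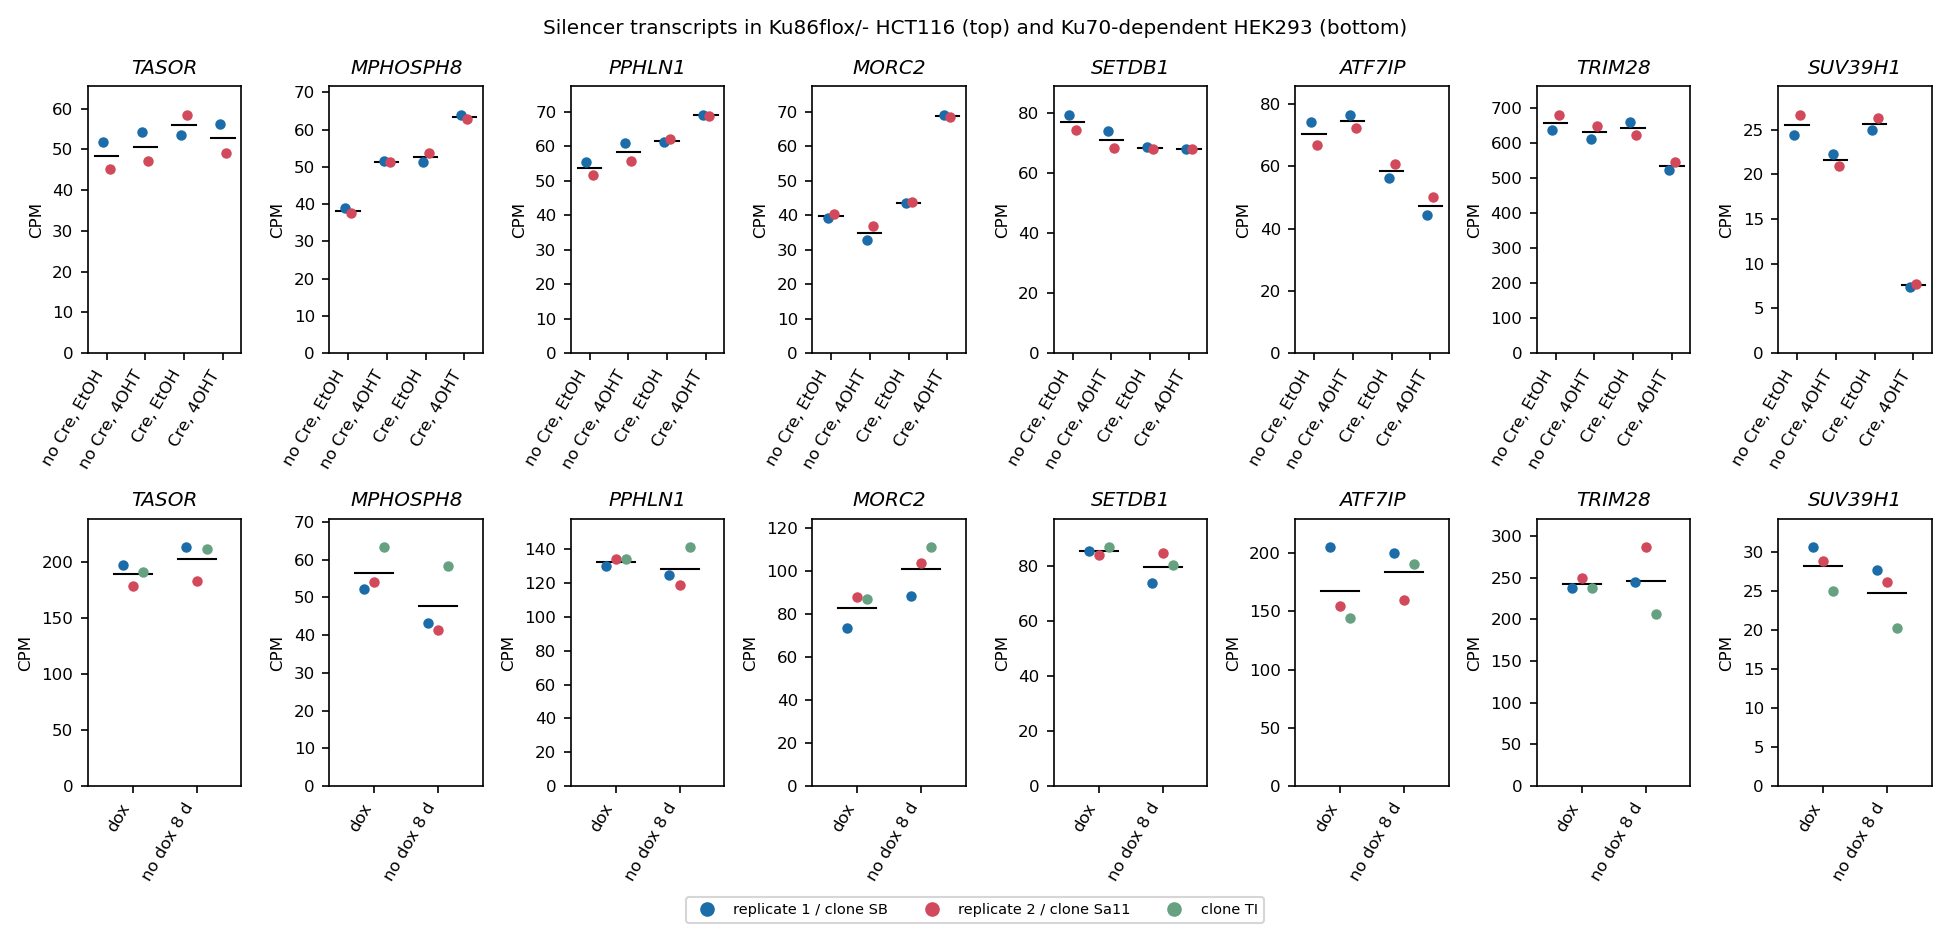
CPM (vertical axes, from 0) of the 8 silencer transcripts in each library of the floxed HCT116 cells (top) and of HEK293 (bottom), with bars at the group means. SUV39H1 is at 7.45 and 7.72 CPM and MORC2 at 69.1 and 68.3 CPM after 4OHT with Cre, apart from the other 3 groups. In HEK293 the 2 groups overlap for all genes but MORC2, which was not called there. The share of all genes tested whose groups lie apart was not computed.

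In HEK293, 8 days without doxycycline left 0 of the 8 members called, where 22.0% of 15549 genes were. In edgeR 0 had an unadjusted p under 0.05, and DESeq2 and limma called 0. Clones are given in the order SB, Sa11 and TI. MORC2 had 73.7, 88.1 and 87.0 CPM with doxycycline and 88.2, 104 and 111 CPM without it. Every library without doxycycline was above every library with it, and the log2 fold change was 0.29 ± 0.13 (SE, n = 3 and 3; edgeR adjusted p = 0.146). With clone as a block it was 0.28 and was called (edgeR adjusted p = 0.0474), and without the SB library off doxycycline it was 0.41 and called. SUV39H1 had 30.6, 28.9 and 25.0 CPM with doxycycline and 27.7, 26.2 and 20.3 CPM without it. Each clone was lower, by -0.14, -0.14 and -0.30 on the log2 scale, while the ranges overlapped (log2 fold change -0.19 ± 0.16, edgeR adjusted p = 0.445). TRIM28 was at 0.02 ± 0.14 and SETDB1 at -0.10 ± 0.11 (edgeR adjusted p = 0.927 and 0.543). HEK293 RNA was ribosome-depleted and HCT116 RNA poly-A enriched, and their tables were normalized separately, so levels are not compared between the lines.

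A list of 12 cell-cycle genes was read in the same comparisons as SUV39H1 and TRIM28. All 12 genes of the proliferation list fell at 2 days of IAA (median log2 fold change -1.09) and at 4 days (-1.81), and 11 fell at 6 days (-1.66). At 4 days CCNB1 was at -2.29 ± 0.18 and TK1 at -2.08 ± 0.14 (edgeR adjusted p = 2.69e-10 and 2.44e-11). In cells without MAVS 5 of 12 fell (median -0.55), with IAA added to the inhibitor 11 of 12 did at 4 days (-0.86), where neither SUV39H1 nor TRIM28 was called, and with the inhibitor alone 10 of 12 (-0.69). After 4OHT all 12 fell with Cre (-2.36), and without Cre 1 rose and 3 fell (-0.04). In HEK293 2 of 12 fell, CDK1 and RRM2 (list median -0.25). The medians over all genes tested in these comparisons lay between -0.01 and 0.042. Of all genes tested 9.94%, 14.9% and 17.5% fell at 2, 4 and 6 days of IAA. With the inhibitor alone 3.84% fell, and after 4OHT with Cre 27.5% did. Called in either direction were 7.88% without MAVS, 11.2% with IAA added to the inhibitor, 13.7% after 4OHT without Cre and 22.0% in HEK293. These RNAs come from bulk cells, so fewer cells of a type and less RNA per cell cannot be told apart, and the part of cell-cycle position in the SUV39H1 and TRIM28 values was not tested.

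**Figure D5:**
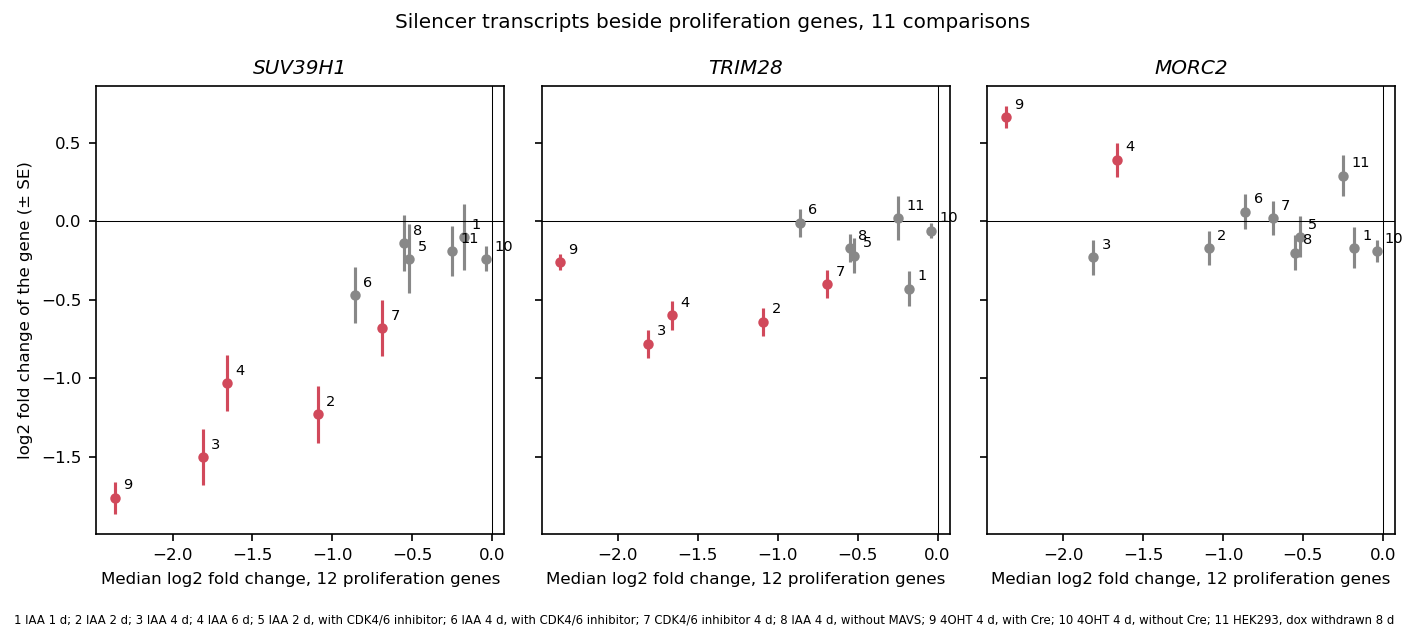
Log2 fold change (± SE) of SUV39H1, TRIM28 and MORC2 against the median log2 fold change of 12 proliferation genes in 11 numbered comparisons, in red where the edgeR adjusted p was under 0.05. Several comparisons share control libraries. SUV39H1 is lowest (-1.76) where the proliferation median is lowest (-2.36), after 4OHT with Cre. TRIM28 is lowest elsewhere, at 4 days of IAA, and MORC2 is higher than its control after 4OHT with Cre.

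Other writers and readers of lysine 9 methylation differed in how many were called from one comparison to the next. Of 11 such genes 5 fell at 2 days, 7 at 4 days and 6 at 6 days of IAA, where 9.94%, 14.9% and 17.5% of all genes tested fell. At 6 days 2 rose, where 17.8% of all genes did. The list medians were -0.43, -0.55 and -0.67. UHRF1, which couples this mark to DNA methylation, was at -1.63 ± 0.12 at 4 days (edgeR adjusted p = 1.57e-10). The HP1 genes CBX3, CBX5 and CBX1 were at -1.08 ± 0.13, -0.90 ± 0.18 and -0.79 ± 0.14 (edgeR adjusted p = 5.34e-07, 0.000219 and 7.37e-05). Without MAVS 3 of 11 fell, CBX3, CBX1 and EHMT2, and with IAA added to the inhibitor for 4 days 3 fell, CBX5, UHRF1 and CBX3, beside 7.88% and 11.2% of all genes called in either direction. After 4OHT with Cre 6 of 10 tested fell and 1 rose, where 27.5% and 26.4% of all genes did, with UHRF1 at -1.87 ± 0.07 and CBX5 at -1.08 ± 0.06 (edgeR adjusted p = 1.74e-10 and 4.99e-09). In HEK293 CBX5 fell (-0.45 ± 0.12, edgeR adjusted p = 0.024), and SETDB2 and CDYL rose, where 22.0% of all genes were called.

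Of 12 partners of TRIM28, mainly the NuRD deacetylase and remodelling complex and the SUMO pathway, 4 fell at 2 days and 7 at both 4 and 6 days of IAA, and 0 rose (medians -0.22, -0.34 and -0.34). Of all genes tested 9.94%, 14.9% and 17.5% fell at these times. The deacetylase HDAC1 was at -0.91 ± 0.09 and the remodeller CHD3 at -0.78 ± 0.17 at 4 days (edgeR adjusted p = 1.26e-08 and 0.000606). The difference with and without MAVS was called for 1 of the 12, HDAC1 (-0.66 ± 0.12, edgeR adjusted p = 0.00179), where 4.85% of all genes were called. After 4OHT with Cre 8 of 12 fell, including the histone chaperone RBBP7 (-0.98 ± 0.05, edgeR adjusted p = 4.6e-09), and in HEK293 RBBP7 and RBBP4 fell (-0.92 ± 0.14 and -0.72 ± 0.14, edgeR adjusted p = 0.0029 and 0.00881). Of all genes tested 27.5% fell after 4OHT with Cre, and 22.0% were called in HEK293.

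A further list held 9 partners or paralogs of these silencers. The nuclear matrix protein SAFB fell at 4 days (-0.67 ± 0.08, edgeR adjusted p = 5.74e-07), as did MTREX, the helicase of nuclear RNA decay (-0.67 ± 0.14, edgeR adjusted p = 0.000361). MORC3, a paralog of MORC2, rose (0.45 ± 0.16, edgeR adjusted p = 0.03). At 6 days TASOR2, the TASOR paralog, rose (0.49 ± 0.10, edgeR adjusted p = 0.000267), with 3 of 9 higher and 2 lower in all. Of all genes tested 17.8% were higher and 17.5% lower. With Cre, 4OHT gave 3 higher (MORC3, RBM7 and TASOR2) and 3 lower, MTREX among them, beside 26.4% and 27.5% of all genes. In HEK293 0 of 9 were called, where 22.0% of all genes were. The list medians stayed between -0.14 and 0.14 in these comparisons.

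Of 9 genes for ATRX, DAXX, histone H3.3 and chaperones of H3 deposition, 6 fell at 4 days of IAA and 0 rose. Of all genes tested 14.9% fell and 32.8% were called there. ASF1B and CHAF1B, which work behind replication forks, were at -1.52 ± 0.21 and -1.48 ± 0.16 (edgeR adjusted p = 2.02e-06 and 6.6e-08), and ATRX was at 0.25 ± 0.20 (edgeR adjusted p = 0.374). Demethylases of lysine 9 went both ways, with KDM4C higher (0.61 ± 0.13, edgeR adjusted p = 0.000858) and KDM1A lower (-0.50 ± 0.13, edgeR adjusted p = 0.00288) at 4 days. After 4OHT with Cre 5 of 9 demethylases rose and 3 fell, where 26.4% and 27.5% of all genes did. KDM4B rose most (1.43 ± 0.05, edgeR adjusted p = 1.36e-10).

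Of 11 listed KRAB zinc fingers, several of which bind retroelements, 7 passed the count filter in the degron set. At 4 days of IAA 2 rose, ZNF274 (0.56 ± 0.18, edgeR adjusted p = 0.0199) and ZNF765 (0.46 ± 0.15, edgeR adjusted p = 0.0164), where 32.8% of all genes were called. Controls differed in these genes as well. In 1-day against 2-day DMSO, ZNF274 was at 1.19 and ZNF765 at -0.50, both called. In DMSO-treated clones without against with MAVS they were at 0.60 and -0.76, also both called. Of the 7, ZNF382 was far higher in 1-day than in 2-day DMSO (log2 fold change 8.58). It was at 0.0 with no SE at 2, 4 and 6 days of IAA, so those comparisons could not test it. It may have passed the count filter only through the libraries that stood apart, and its 1-day difference may have been fixed by that filter. At 6 days ZNF274 was at 1.83 ± 0.18 (edgeR adjusted p = 1.32e-08). In HEK293, with 11 tested, 4 rose: ZNF765 (0.94 ± 0.13), ZNF274 (0.88 ± 0.11), ZNF268 (0.84 ± 0.23) and ZNF445 (0.39 ± 0.11), with edgeR adjusted p of 0.00237, 0.00194, 0.0294 and 0.0346. Of all genes tested there 22.0% were called.

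Of 20 genes derived from retroelements or, for PGBD5, from a DNA transposon, 12 were tested in the degron set. Of these 6 rose and 2 fell at 4 days of IAA (median 0.73). Of all genes tested 32.8% were called and 14.9% fell. The median includes RTL8B (2.61 ± 1.67) and PGBD5 (1.81 ± 1.55), which were not called (edgeR adjusted p = 0.278 and 0.464). Both were far higher in 1-day than in 2-day DMSO (log2 fold changes 7.13 and 7.98). They too may have passed the count filter only through the libraries that stood apart, so these differences may have been fixed by it. The envelope-derived ERV3-1 and the HERV-K gene ERVK13-1 were at 1.20 ± 0.24 and 1.1 ± 0.19 (edgeR adjusted p = 0.000253 and 4e-05). In 1-day against 2-day DMSO they were at -0.96 (called) and -0.39 (not called). The gag-derived gene PEG10 was at -3.38 ± 0.43 (edgeR adjusted p = 6.86e-07) and ERVMER34-1 at -0.93 ± 0.20 (edgeR adjusted p = 0.000685). Without MAVS 1 rose, ERVK3-1 (0.52 ± 0.11, edgeR adjusted p = 0.00387), and PEG10 fell (-1.64 ± 0.40, edgeR adjusted p = 0.0108), where 7.88% of all genes were called. After 4OHT, ERVK13-1 rose both with Cre (1.32 ± 0.10, edgeR adjusted p = 8.98e-08) and without it (0.95 ± 0.12, edgeR adjusted p = 0.000355). Copies of such genes are alike, and the treatment of reads that match several copies is not given in the sources used here, so these values are uncertain. The tables count annotated genes, and L1, Alu and endogenous retrovirus loci outside them are not analysed here.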

How the data were processed

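RNA was sequenced from 40 HCT116 libraries (poly-A enriched) and 6 HEK293 libraries (ribosome-depleted), per the labels' protocols. The authors deposited estimated counts per gene and TPM per gene for each line, the TPM values scaled by the authors to transcript length and library total. The submitters' processing notes list Salmon 1.10.2, kallisto 0.50.0, DESeq2 and GRCh38 and give no roles. Annotation, strandedness and handling of reads that map to several genes: not given in the sources used here. No column was left without a sample.

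Estimated counts were rounded and tested with the quasi-likelihood test of edgeR 4.0.16 (R 4.3.3), after TMM scaling and filterByExpr on the groups, with Benjamini-Hochberg adjustment over all genes tested and a threshold of 0.05. The degron set was 1 fit (32 libraries in 12 groups, 18877 genes, 20 residual degrees), the floxed set another (8 in 4 groups, 16726 genes, 4 degrees) and HEK293 its own fit (6 in 2 groups, 15549 genes, 4 degrees). Spread is pooled over the groups of a fit, so a group of 2 is assumed to vary like the others. The SE is the log2 fold change divided by the square root of F. The procedure was tested on simulated data, drawn without clone effects or differences between library sets, so that test does not cover these. Replicate libraries always differed beyond counting noise (chi-square over degrees of freedom 1.98 to 72.0, genes with at least 20 summed counts). Reads carried no molecular identifiers.

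Degron and HEK293 libraries of 1 clone share that clone, per the labels, which pairs them. Libraries of 1 clone deviated from their group means with correlations of -0.113 to 0.273 (degron) and 0.245 to 0.467 (HEK293). Clones of 1 line are the replicates. Alternatives were RLE scaling, DESeq2 1.42.0, testing without the filter, limma 3.58.1 with TPM as log2(TPM + 1), fits of the compared groups alone, a clone or replicate block and leaving out each library. Leaving out all libraries of 1 clone was added after seeing the data.

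The members and the gene lists were chosen with earlier results of these data known. All 8 members are named, from each list up to 4 called genes per comparison with the largest absolute log2 fold change, and for each member the 3 genes with the highest Pearson r over the 12 degron groups (log2 CPM, prior count 2). Some names outside this rule were chosen after their values were seen: ATRX, and the identity markers. Values without the 1-day groups and the 2-day inhibitor groups were added after seeing the data. Promoter letters and positions are from RefSeq (GRCh38.p14), and untranslated exons from GENCODE. TRIM28 had no promoter entry.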

Additional observations from a re-analysis of the deposited data

Results flagged for a closer look

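These 7 values are listed because a test of the difference between 2 responses passed the threshold (edgeR, adjusted p under 0.05). Between the 4-day IAA responses with and without MAVS, SUV39H1 differed by -1.36 (lower than its control in 3 of 3 clones on each side) and TRIM28 by -0.61 (also lower in 3 of 3 on each side) on the log2 scale. With the compared groups alone the TRIM28 difference was not called (edgeR adjusted p = 0.083). Between the 4-day IAA responses without and with the CDK4/6 inhibitor, TRIM28 differed by -0.77 (lower in 3 of 3 clones without inhibitor) and SUV39H1 by -1.03 (lower in 3 of 3 with and without it). Between the 4OHT responses with and without Cre, SUV39H1 differed by -1.52, MORC2 by 0.84 and ATF7IP by -0.39. For MORC2 both replicate ratios were positive with Cre (0.64 and 0.67) and negative without (-0.25 and -0.13). For ATF7IP they were negative with Cre (-0.34 and -0.28) and positive without (0.05 and 0.12).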

How the results depend on the processing

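Of 2168 values of the 8 members recomputed under an alternative, 2035 stayed on their side of the threshold, 103 lost a call, 27 gained one and 3 called values changed sign, while 149 sign changes had no call on either side. SUV39H1 and TRIM28 kept their calls at 2, 4 and 6 days of IAA under all 15 alternatives each. The 3 reversals came with limma on log2(TPM + 1): TRIM28 was at -0.70 in MAVS-knockout against intact DMSO clones (0.05 by edgeR) and at -1.19 in 1-day against 2-day DMSO (0.27), and SETDB1 was at -0.49 in the Cre difference (0.11). The log2 ratio of TPM to CPM of TRIM28 was -0.51 in 1-day and 0.96 in 2-day DMSO, where the median gene had -0.64 and -0.14, so TPM and counts disagree between these groups for this gene; the cause was not tested.

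Counts of members called moved as follows. At 1 day of IAA 1 was called by DESeq2 and 1 with the compared groups alone (0 by edgeR). At 4 days (4) it was 2 without filter, 2 with limma and 2 with the compared groups alone. At 6 days (6) it was 3 with limma and 3 without clone 1. At 4 against 2 days (0) it was 1 without clone 1. At 6 against 4 days (2) it was 1 without filter, 0 with limma, 1 with the clone as replicate block, 0 with the compared groups alone and 1 without clone 9. For the inhibitor alone (2) it was 1 with limma and 0 without clone 1, 7 or 9. Between DMSO controls (5) it was 3 with limma and 2 without clone 9. For the MAVS difference (2) it was 1 with the compared groups alone, where TRIM28 was at -0.62 and lost its call. For the inhibitor difference (2) it was 1 with limma, 1 with the compared groups alone, 1 without clone 7 and 0 without clone 9. For Cre against no Cre in ethanol (3) it was 1 with limma, for the Cre difference (3) 5 with limma, and in HEK293 (0) 1 with the clone as replicate block.

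Leaving out 1 library gave 3 members called at 4 days (without IAA clone 1 MPHOSPH8, at 0.37, was among them), 4 to 5 at 6 days, 0 to 1 at 4 against 2 days, 1 to 3 at 6 against 4 days, 0 to 2 for the inhibitor alone, 2 to 5 between DMSO controls, 1 to 3 for the inhibitor difference, 4 to 5 for 4OHT with Cre, 1 to 2 without Cre, 1 to 3 for Cre in ethanol, 2 to 4 for the Cre difference and 0 to 1 in HEK293. With the clone as replicate block no other count of members moved by more than 1.5 times. In the floxed cells the replicate numbers share only a number (same-number correlations 0.012 to 0.0632), and the replicate block added TRIM28 (-0.20) to the Cre difference.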
